A study of Mus musculus with 13 samples.

Results

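The 5 genes described here encode the neuronal intermediate filament subunits of motoneurons: Nefl, Nefm and Nefh (the neurofilament light, medium and heavy chains), Ina (alpha-internexin) and Prph (peripherin). They were picked out by gene symbol as a family, with earlier results of these data known, and are 5 of the 48709 gene rows of the count tables. All 5 passed the filter on low counts. The libraries come from motoneurons cut by laser from cresyl violet stained sections of frozen lumbar spinal cord, with 500 cells pooled per mouse, so that each library stands for 1 mouse. Every mouse carried the SOD1-G93A transgene, a mutant human superoxide dismutase that causes a motoneuron disease used as a model of amyotrophic lateral sclerosis, and was 65 days old. In the AAV-miR SOD1 group (n = 4), an adeno-associated virus (AAV) was given into the cerebral ventricles at postnatal day 2. It was designed to drive an artificial microRNA against human SOD1 in astrocytes, so its intended target is a neighbouring cell type. Whether the vector also acted in the captured motoneurons was not measured here. Mice of AAV-miR ctrl (n = 5) were given the control vector by the same route and at the same age. The non-injected group (n = 4) held littermates of the same genotype. No group lacks the transgene, so no comparison here shows the effect of the disease itself. The targeted human transgene was not analysed here.

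Neurofilaments are long polymers that fill large axons and set their calibre. The light chain forms the core of the filament, the medium and heavy chains join it and send out side arms that are heavily phosphorylated, and alpha-internexin or peripherin can take a place as a further subunit. Alpha-internexin is best known from central neurons, whereas peripherin marks neurons whose axons leave the central nervous system, such as motoneurons and sensory neurons. Accumulations of neurofilaments are a classical finding in motoneurons in amyotrophic lateral sclerosis.

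Between 13897189 and 37414222 reads per library were assigned to genes. The tables of 2 libraries carry a column header that names another group than their labels: the library labelled non-injected replicate 3 has a header of the control vector group, and the library labelled AAV-miR ctrl replicate 3 has a header of the non-injected group. Labels were followed, and values with the groups of these libraries exchanged are given where they differ in sign. The libraries numbered 5 and 6 all belong to the control groups, and they hold 29682646 to 37414222 counts against 13897189 to 23101349 in the others. Their motoneuron marker level (the mean log2 CPM of 7 genes, among them Chat) lay between 4.80 and 5.43, against 3.55 to 5.06 in the 9 libraries numbered 1 to 4. The labels do not say what the numbers stand for.

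The sequence of Nefh shows what sets the heavy chain apart from the other subunits. Its coding sequence on chromosome 11 (GRCm38, GENCODE M21) holds 51 runs of a lysine codon, a serine codon and a proline codon, the repeat whose serines are phosphorylated in the side arm. That was the highest number among 21764 coding genes searched. Nefm held 4 such runs, which ranked it 18, and none was found in Nefl, Ina or Prph. At least 1 run was present in 10.6% of the coding genes and at least 5 in 0.0781%. A stretch of 150 coding bases of Nefh, with its 8 runs in capitals, reads on the coding (minus) strand as follows.
Nefh coding repeat, chr11:4940920-4941069: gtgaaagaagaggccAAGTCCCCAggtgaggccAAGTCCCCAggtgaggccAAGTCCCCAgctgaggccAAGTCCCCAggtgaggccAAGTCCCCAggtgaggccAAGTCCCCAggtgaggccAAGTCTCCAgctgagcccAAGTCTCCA

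Nefl and Nefm are neighbours on chromosome 14 and are read in opposite directions. Nefl spans chr14:68083863-68089095 on the plus strand and Nefm chr14:68082590-68124846 on the minus strand. The longer Nefm transcript, Nefm-202, ends in an exon of 2381 bases that covers 1108 of the 1147 bases of the first Nefl exon. All 1108 shared bases are complementary. The 30 bases below mark the place where Nefl translation starts, with the start codon in capitals, and show the same bases as Nefm-202 carries them outside its coding sequence.
Nefl-201, plus strand, chr14:68083963-68083992: ATGagttcgttcggctacgatccgtacttt
Nefm-202, minus strand, chr14:68083963-68083992: aaagtacggatcgtagccgaacgaactCAT
Whether reads were assigned with the strand taken into account is not given in the sources used here. Without strand, reads from these shared bases cannot be told apart between Nefl and Nefm, and the counting may have set them aside. The levels of Nefl and Nefm, and every ratio that holds either of them, carry this limit. Reads that could belong to several genes made up 3.85% to 5.24% of the uniquely placed reads of a library.

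**Figure D1:**
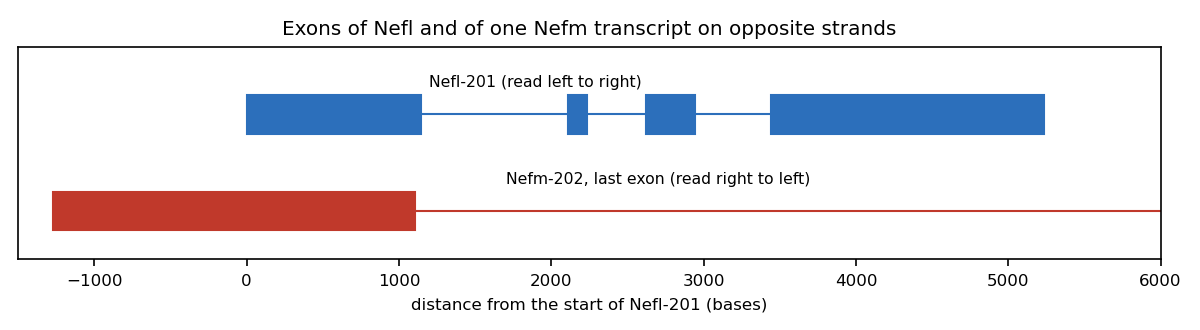
Exons (boxes) of Nefl-201 and the last exon of Nefm-202, with introns as lines, against the distance in bases from the start of Nefl-201. The Nefm-202 exon reaches from -1273 to 1107 bases and lies over nearly all of the first Nefl exon.

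The other 3 genes lie alone or nearly so. Nefh spans chr11:4938754-4948064 on the minus strand and Prph chr15:99055174-99058978 on the plus strand, and neither shares exon bases with another gene. Ina spans chr19:47014698-47025327 on the plus strand and shares 456 exon bases with Nt5c2, which is read the other way. The limit given above for shared bases therefore holds for the level of Ina too. The 250 bases before the transcript start are shown for the members listed in the RefSeq promoter table (GRCm38.p6), which are Ina and Prph. Capitals mark 2 motifs searched on both strands. They are TATAAA, the core of a box found shortly before many transcript starts, and the letters of the GC box, GGGCGG, whose matches lie on the opposite strand and so appear below as their reverse complement. The motifs do not overlap each other.
Ina, plus strand, chr19:47014431-47014680: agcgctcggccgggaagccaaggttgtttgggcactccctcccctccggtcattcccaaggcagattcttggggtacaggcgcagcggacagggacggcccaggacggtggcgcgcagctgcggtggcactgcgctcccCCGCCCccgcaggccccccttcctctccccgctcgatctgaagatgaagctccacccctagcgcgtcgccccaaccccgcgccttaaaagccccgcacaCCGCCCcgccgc
Prph, plus strand, chr15:99054924-99055173: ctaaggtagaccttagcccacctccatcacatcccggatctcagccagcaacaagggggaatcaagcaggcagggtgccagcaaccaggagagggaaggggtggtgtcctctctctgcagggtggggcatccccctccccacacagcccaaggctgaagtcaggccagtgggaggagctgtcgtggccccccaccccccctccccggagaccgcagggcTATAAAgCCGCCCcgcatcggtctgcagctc
The Prph window held TATAAA 31 bases before the start and 1 GC box 24 bases before it. The Ina window held 2 GC boxes, at 111 and 12 bases before the start, and no TATAAA. Among 32851 windows of this length, 12.4% held TATAAA and 32.7% held GGGCGG. These matches describe the letters only.

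The 5 genes together took 0.436% to 1.58% of all counts of a library. Levels are given in CPM (counts relative to the total count of the library), scaled by the trimmed mean of M values (TMM), and levels of different genes are compared as CPM per kilobase of exon. On that scale Nefl and Nefm were close, with means over 13 libraries of 782 and 732 CPM per kilobase, and Nefl was the higher in 5 of 13 libraries. With the shared bases left out of both lengths, Nefl was the higher in 13 of 13, so the order of this pair depends on how those bases are treated. It also depends on the Nefm length, here the merged exons of 2 transcripts (5782 bases, against 3380 for Nefl). Nefm-201 alone has 3334 bases, and Nefm counts were 1.34 to 1.97 times those of Nefl. On that length, and with the full length of Nefl, Nefm would be the higher. With the shared bases left out of Nefl, this need not hold in every library. With the merged lengths, Nefh followed at 421, Prph at 239.8 and Ina at 22.1 CPM per kilobase, and each of these steps held in 13 of 13 libraries. Among 17363 genes with a known merged length, Nefl ranked 72, Nefm 74, Nefh 135, Prph 253 and Ina 2361. The step from Prph down to Ina was between 3.96 and 18.5 times, and the step from Nefh down to Prph between 1.14 and 2.96 times.

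The light chain Nefl was read at 1214, 1858, 1294 and 1749 CPM in AAV-miR SOD1 replicates 1 to 4. The AAV-miR ctrl libraries gave 1723, 1904, 2245, 4935 and 4455 CPM for replicates 1, 3, 4, 5 and 6. The non-injected libraries gave 1692, 4415, 3732 and 3154 CPM for replicates 2, 3, 5 and 6. The control libraries fell into a low set (AAV-miR ctrl 1, 3 and 4 and non-injected 2), which overlapped the AAV-miR SOD1 group, and a high set (all libraries numbered 5 or 6 and non-injected 3), which did not. Group means were 1529 ± 322 (SD, n = 4), 3052 ± 1520.4 (SD, n = 5) and 3249 ± 1158 CPM (SD, n = 4) in the order AAV-miR SOD1, AAV-miR ctrl and non-injected, which is kept below.

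The medium chain Nefm, which carries a phosphorylated side arm, stood at 2237, 3670, 2354 and 3137 CPM in AAV-miR SOD1 replicates 1 to 4. The AAV-miR ctrl values were 3326, 3286, 3633, 7073 and 5972 CPM, and the non-injected values 3177, 7563, 5223 and 4365 CPM, with replicates in the order used for Nefl. AAV-miR SOD1 replicate 2 lay above 4 of the 9 control libraries, again AAV-miR ctrl 1, 3 and 4 and non-injected 2. Group means were 2849 ± 677 (SD, n = 4), 4658 ± 1751 (SD, n = 5) and 5082 ± 1855 CPM (SD, n = 4).

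The heavy chain Nefh, with the longest side arm, stood at 967, 1473, 852 and 1301 CPM in the AAV-miR SOD1 libraries. It reached 1268, 1406, 1247, 2275 and 2132 CPM in the AAV-miR ctrl libraries and 1317, 2950.1, 2637 and 2034 CPM in the non-injected ones. The groups overlapped through the same low set of control libraries. Group means were 1148 ± 288 (SD, n = 4), 1666 ± 497 (SD, n = 5) and 2234 ± 720.4 CPM (SD, n = 4).

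Ina, the least abundant member, stood at 39.5, 38.7, 24.2 and 90.0 CPM in the AAV-miR SOD1 libraries. The AAV-miR ctrl libraries gave 63.4, 57.2, 69.5, 99.98 and 94.1 CPM and the non-injected libraries 70.1, 103, 107 and 73.6 CPM. Here 3 AAV-miR SOD1 libraries lay below every control library, and replicate 4 lay above 5 of the 9. Group means were 48.1 ± 28.8 (SD, n = 4), 76.8 ± 19.1 (SD, n = 5) and 88.4 ± 19.3 CPM (SD, n = 4). The lowest Ina count in any library was 511, so counting error was small beside the spread between mice.

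Prph, which joins neurofilaments in axons that leave the cord, stood at 235, 441, 180.3 and 219.7 CPM in the AAV-miR SOD1 libraries. It reached 226, 316, 273, 998 and 659 CPM in the AAV-miR ctrl libraries and 305, 787, 860.4 and 732 CPM in the non-injected ones. AAV-miR SOD1 replicate 2 lay above the low set of control libraries, and the high set lay above all AAV-miR SOD1 libraries. Group means were 269 ± 117 (SD, n = 4), 494 ± 329 (SD, n = 5) and 671 ± 249.6 CPM (SD, n = 4). Its values spread furthest among the control vector libraries, from 226 to 998 CPM.

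**Figure D2:**
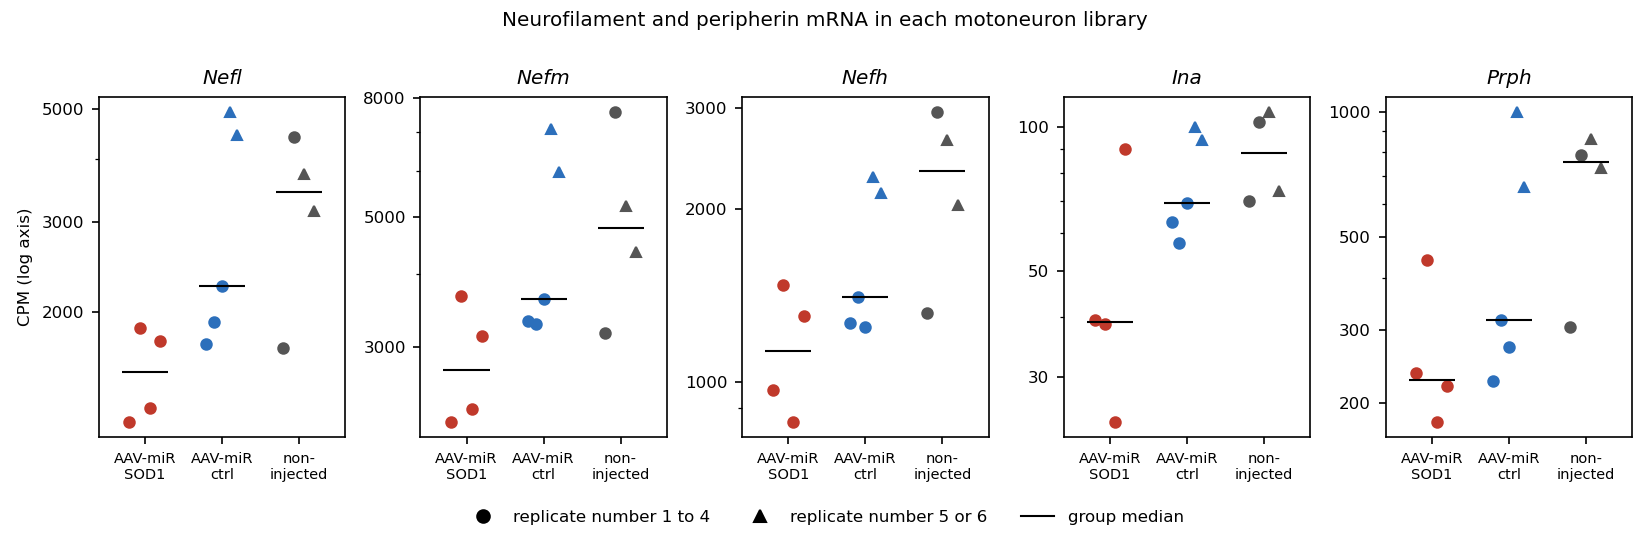
CPM of each gene (log axis) in each of 13 libraries by group, with circles for libraries numbered 1 to 4, triangles for those numbered 5 or 6, and a line at the group median. For Nefl the AAV-miR SOD1 libraries lie between 1214 and 1858 CPM, and the libraries numbered 5 or 6 between 3154 and 4935 CPM.

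The main question of the design is whether silencing mutant SOD1 in astrocytes changes transcripts of the motoneurons. No member passed edgeR's quasi-likelihood test in any of the 4 comparisons (Benjamini-Hochberg adjusted p under 0.05 over 17403 genes), and neither did any other gene (0% called in each comparison). The count over all genes against both control groups rests on single libraries: edgeR called 1694 genes without AAV-miR ctrl replicate 1, 121 without AAV-miR SOD1 replicate 3 and 1 without AAV-miR SOD1 replicate 4, and still no member. All 5 members were estimated lower in AAV-miR SOD1 than in AAV-miR ctrl, where 53.7% of all genes were, than in the non-injected group, where 55.1% were, and than in both control groups together, where 54.2% were. For no member did all AAV-miR SOD1 libraries lie below all libraries of the other side, which held for 2.46% of all genes against AAV-miR ctrl, 5.81% against the non-injected group and 1.23% against both. At an unadjusted p under 0.05, 5 of 5 members were lower against the non-injected group, where 11.5% of all genes were, and 1 of 5 against AAV-miR ctrl, where 8.54% were. Against both control groups, weighted equally, 5 of 5 were lower at that level, with 12.1% of all genes. The 3 comparisons share libraries and the members vary together, so these counts are not separate observations. The median log2 fold change against both control groups was -0.78 over the members and -0.06 over all genes tested.

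Against both control groups, Nefl had a log2 fold change of -1.04 ± 0.36 (SE, edgeR, unadjusted p = 0.0113, adjusted p = 0.123). Nefm stood at -0.77 ± 0.32 with an edgeR adjusted p of 0.174, and Nefh at -0.75 ± 0.28 with an edgeR adjusted p of 0.144. The estimate for Ina was -0.78 ± 0.30 and for Prph -1.10 ± 0.43, with edgeR adjusted p of 0.152 and 0.156. The 5 estimates lay between -1.10 and -0.75.

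With the non-injected group alone as reference, the estimates were -1.09 ± 0.40 for Nefl, -0.83 ± 0.36 for Nefm, -0.96 ± 0.32 for Nefh, -0.88 ± 0.34 for Ina and -1.32 ± 0.48 for Prph, with edgeR adjusted p between 0.147 and 0.210. With AAV-miR ctrl as reference, Nefl stood at -0.998 ± 0.387, Nefm at -0.71 ± 0.35, Nefh at -0.54 ± 0.31, Ina at -0.68 ± 0.33 and Prph at -0.88 ± 0.46, with edgeR adjusted p between 0.286 and 0.429. DESeq2, run as an alternative, called Nefh lower than in the non-injected group (adjusted p = 0.0440) and Nefl lower than in both control groups (adjusted p = 0.0313), and limma-voom with sample weights called no member. Single libraries moved some of these values. Leaving out AAV-miR SOD1 replicate 4 took the Ina estimate to -1.27 against both control groups, -1.17 against AAV-miR ctrl and -1.38 against the non-injected group. Leaving out AAV-miR SOD1 replicate 3 took it to -0.50 against both and -0.40 against AAV-miR ctrl. Without AAV-miR ctrl replicate 5, Prph stood at -0.45 against AAV-miR ctrl.

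The comparison of the control vector with no injection asks whether injection of a vector alone went with a difference in these transcripts. No member passed the test, and the estimates were -0.09 ± 0.38 for Nefl, -0.13 ± 0.34 for Nefm, -0.42 ± 0.30 for Nefh, -0.20 ± 0.32 for Ina and -0.44 ± 0.45 for Prph (edgeR adjusted p of 1.00 for each). All 5 estimates were negative, as were 52% of all genes. At an unadjusted p under 0.05, 0 of 5 members and 2.24% of all genes were lower, and for 0 of 5 members and 0.517% of all genes did the AAV-miR ctrl libraries all lie below the non-injected ones. These signs rest on the labels of the libraries with contradicting headers: with their groups exchanged the 5 estimates were 0.44, 0.46, 0.10, 0.16 and 0.09 in the same order.

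The 9 libraries numbered 1 to 4 were 4 of AAV-miR SOD1, 3 of AAV-miR ctrl and 2 non-injected. Only number 3 occurs in all 3 groups, so this subset is not balanced by number. In these libraries the estimates against AAV-miR ctrl came to -0.34 for Nefl, -0.25 for Nefm, -0.17 for Nefh, -0.39 for Ina and 0.01 for Prph. Against the non-injected group they were -0.98, -0.89, -0.87, -0.83 and -0.99, which rests on 2 non-injected libraries. No member passed edgeR's test in these libraries either. The share of the difference that goes with the libraries numbered 5 and 6 and the share that goes with treatment cannot be told apart, because no AAV-miR SOD1 library carries these numbers. Those 4 libraries read 3154 to 4935 CPM of Nefl and 659 to 998 CPM of Prph.

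**Figure D3:**
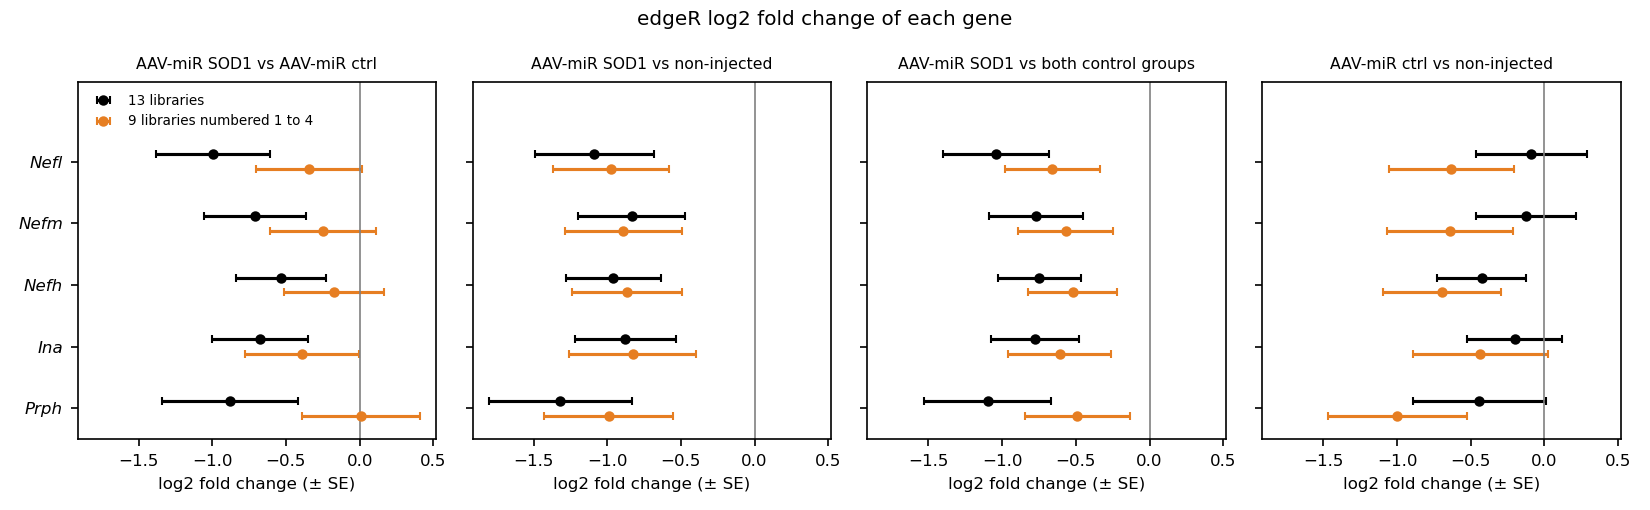
edgeR log2 fold change of each gene with its SE in the 4 comparisons, over all 13 libraries (black) and over the 9 libraries numbered 1 to 4 (orange). Against AAV-miR ctrl the estimates move toward 0 in the 9 libraries, from -0.998 to -0.34 for Nefl and from -0.88 to 0.01 for Prph.

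Ratios between subunits within a library do not depend on how libraries are scaled. The ratio of Nefm to Nefl counts was 1.79 to 1.97 in AAV-miR SOD1, 1.34 to 1.93 in AAV-miR ctrl and 1.38 to 1.88 in the non-injected group. It was lowest in the 4 libraries numbered 5 or 6, at 1.34 to 1.43, and lay between 1.62 and 1.97 in the 9 others. In the same 4 libraries, reads outside annotated genes made up 2.95% to 4.23% of uniquely placed reads against 4.49% to 7.31% in the others, and reads that fit several places 42.3% to 46.6% of all reads against 49.9% to 56.8%. The part of these measures in the ratio was not tested. Reads that fit several genes, the class that the overlap of Nefl and Nefm can feed, were 4.63% to 5.19% there and 3.85% to 5.24% in the others.

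For Nefh to Nefl, the ratio was 0.659 to 0.797 in AAV-miR SOD1, 0.461 to 0.738 in AAV-miR ctrl and 0.645 to 0.778 in the non-injected group. The Nefh to Nefm ratio was 0.362 to 0.432, 0.322 to 0.428 and 0.390 to 0.505 in the same order. Prph to Nefl stood at 0.126 to 0.237, 0.122 to 0.202 and 0.178 to 0.232, and Ina to Nefl at 0.0187 to 0.0515, 0.0203 to 0.0368 and 0.0232 to 0.0414. The Ina ratio had the widest range within AAV-miR SOD1, where replicate 4 gave the highest value of all 13 libraries.

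No ratio passed a two-sided exact permutation test between groups, over libraries, after adjustment over 20 tests (5 ratios in 4 comparisons). The smallest adjusted p was 0.340. Nefm to Nefl was 1.17 times as high in AAV-miR SOD1 as in both control groups (exact permutation p = 0.0615, adjusted p = 0.340). The smallest unadjusted exact p was 0.0476, for Nefh to Nefm in AAV-miR ctrl against the non-injected group, at 0.825 times. With 4 libraries against 4, the smallest p the design allows is 0.0286, and with 4 against 5 it is 0.00794. With 4 against 9 it is 0.0014. After adjustment over the 20 tests, a single ratio at 0.0286 or 0.00794 could not pass. Only in the comparison with both control groups could 1 ratio pass alone, so the other comparisons decide little.

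**Figure D4:**
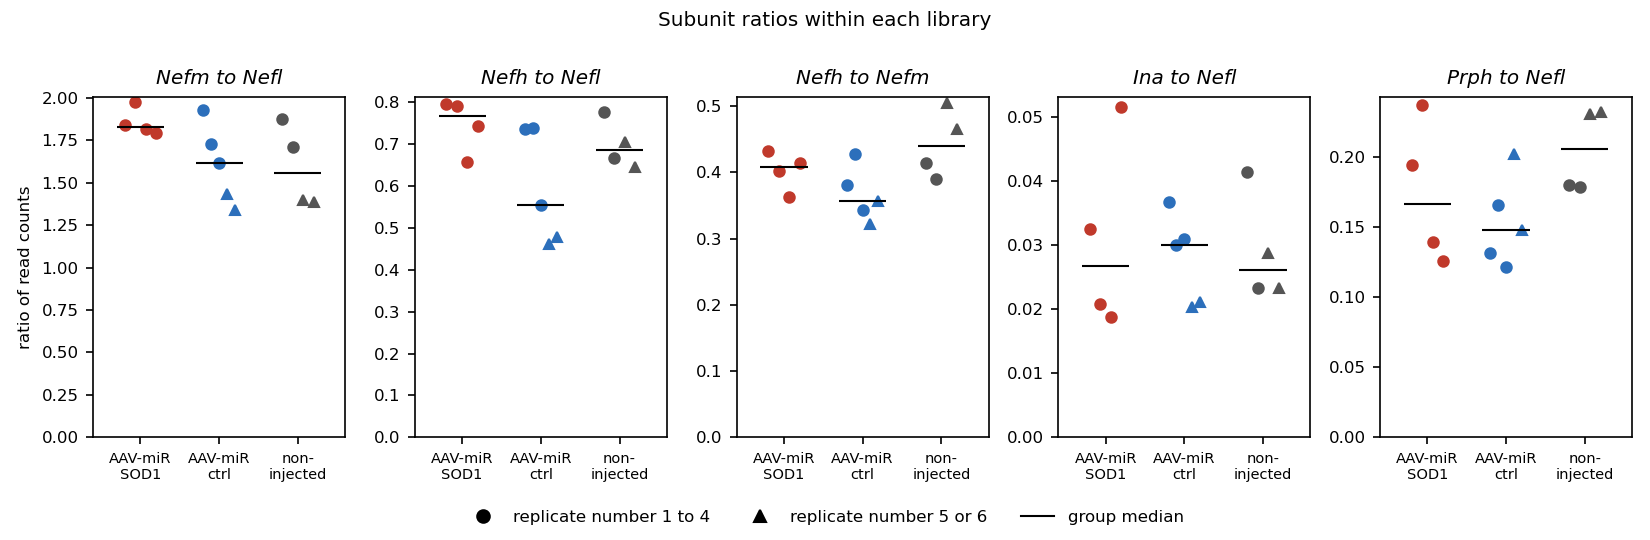
Ratio of read counts between members within each library by group (circles, libraries numbered 1 to 4; triangles, numbered 5 or 6; line, median). The Nefm to Nefl ratio is between 1.34 and 1.43 in all 4 libraries numbered 5 or 6 and between 1.62 and 1.97 in the others.

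The captured tissue was checked for motoneuron RNA, which gives the members their setting. Of 7 motoneuron markers, Chat, Slc18a3, Slc5a7, Isl1, Isl2 and Mnx1 were read in 13 of 13 libraries, and Prdm6 was at 0 in 1 library. Their summed level was 347 to 593 CPM in AAV-miR SOD1, 511 to 1289 in AAV-miR ctrl and 605 to 1550.5 in the non-injected group. Against both control groups, 0 of 7 passed the adjusted threshold and 6 of 7 were lower at an unadjusted p under 0.05, as were 12.1% of all genes, with a median log2 fold change of -1.03. Chat, which makes acetylcholine, stood at -0.91 ± 0.24 (edgeR adjusted p = 0.0960), and among 7 pan-neuronal genes the median was -1.11. The same number of cells was pooled for every mouse, but the share of the RNA that came from motoneurons was not measured. In bulk captures, a smaller share of motoneuron RNA and less RNA of a gene per motoneuron cannot be told apart.

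Markers of other cells were also read in the captures. Erythroid genes such as Hbb-bs summed to 20786 to 46575 CPM in AAV-miR SOD1, 3511 to 27907 in AAV-miR ctrl and 5487 to 20011 in the non-injected group. All 6 had an unadjusted p under 0.05 and higher estimates against both control groups, where 10.2% of all genes did, with a median of 1.58, and 0 passed the adjusted threshold. Microglia markers summed to 578 to 819, 326 to 975 and 209 to 503 CPM. Markers of astrocytes, the cells the vector targets, summed to 298 to 378 CPM in AAV-miR SOD1, 480.3 to 868 in AAV-miR ctrl and 427 to 565 in the non-injected group. This sum was lower in every AAV-miR SOD1 library than in any control library. For 0 of the 6 single markers was that so, and for 1.23% of all genes. Aldoc held the largest part of the sum and stood at -0.96 ± 0.24 (edgeR adjusted p = 0.0960). It was 1 of 6 astrocyte markers that were lower at an unadjusted p under 0.05, where 12.1% of all genes were, and 0 of 6 passed the adjusted threshold. No astrocyte marker was at 0 in any library. The part of these cells in the neurofilament values was not tested. Sensory neurons of the dorsal root ganglion also make neurofilaments and peripherin, and their markers (7 genes with a row, among them Avil) summed to 0.692 to 8.70 CPM in 11 libraries. AAV-miR ctrl replicates 3 and 4 held 79.4 and 51.4 CPM of these markers, and both belong to the low set of control libraries for the members. Interneuron markers (5 genes, among them Gad1) summed to 53.2 CPM in AAV-miR SOD1 replicate 4. The rest of that group held 14.2 to 22.2 CPM, AAV-miR ctrl 22.3 to 49.2 and the non-injected group 15.96 to 46.6. AAV-miR SOD1 replicate 4 held the highest sum and also gave the highest Ina to Nefl ratio. The part of interneurons in the Ina values was not tested.

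The members were also set against the motoneuron markers of the same library. The log2 level of Nefl minus the marker mean was 6.64 ± 0.17 (SD, n = 4) in AAV-miR SOD1, 6.92 ± 0.23 (SD, n = 5) in AAV-miR ctrl and 6.70 ± 0.25 (SD, n = 4) without injection. Against all 9 control libraries the difference was -0.18 for Nefl, 0.05 for Nefm, 0.06 for Nefh, -0.14 for Ina and -0.21 for Prph. None of 20 such tests passed after adjustment (two-sided exact permutation over libraries, smallest adjusted p = 0.869), and the smallest unadjusted exact p was 0.0952, for Nefl against AAV-miR ctrl. The signs of these differences turned under some alternatives, among them the pan-neuronal genes as reference. With that reference the differences against all 9 control libraries were 0.03 for Nefl, 0.26 for Nefm, 0.27 for Nefh, 0.07 for Ina and -0.0026 for Prph. Nefh stood at 0.40 against AAV-miR ctrl, with an exact permutation p of 0.0397 and an adjusted p of 0.413, and Prph at -0.45 in AAV-miR ctrl against the non-injected group (exact permutation p = 0.183). For Nefl the whole spread on this scale was 6.45 to 7.32, against 10.25 to 12.27 for its log2 CPM. The group sizes are those of the ratio tests, so here too only the comparison with both control groups could pass with 1 member alone. A p above the threshold does not show that the groups are equal.

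Across the 13 libraries, log2 CPM of the members followed the motoneuron marker mean with a Pearson r of 0.94 for Nefl, 0.91 for Nefm, 0.94 for Nefh, 0.75 for Ina and 0.97 for Prph. These values are descriptions, since each point shares its library, depth and scaling on both axes, and since libraries numbered 5 or 6 lie together at the upper end. Among the members, r was highest for Nefl with Nefm (0.98) and lowest for Ina with Prph (0.66). After group means were subtracted the same pairs stood at 0.96 and 0.45. The 4 pairs that hold Ina gave the 4 lowest values before group means were subtracted.

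**Figure D5:**
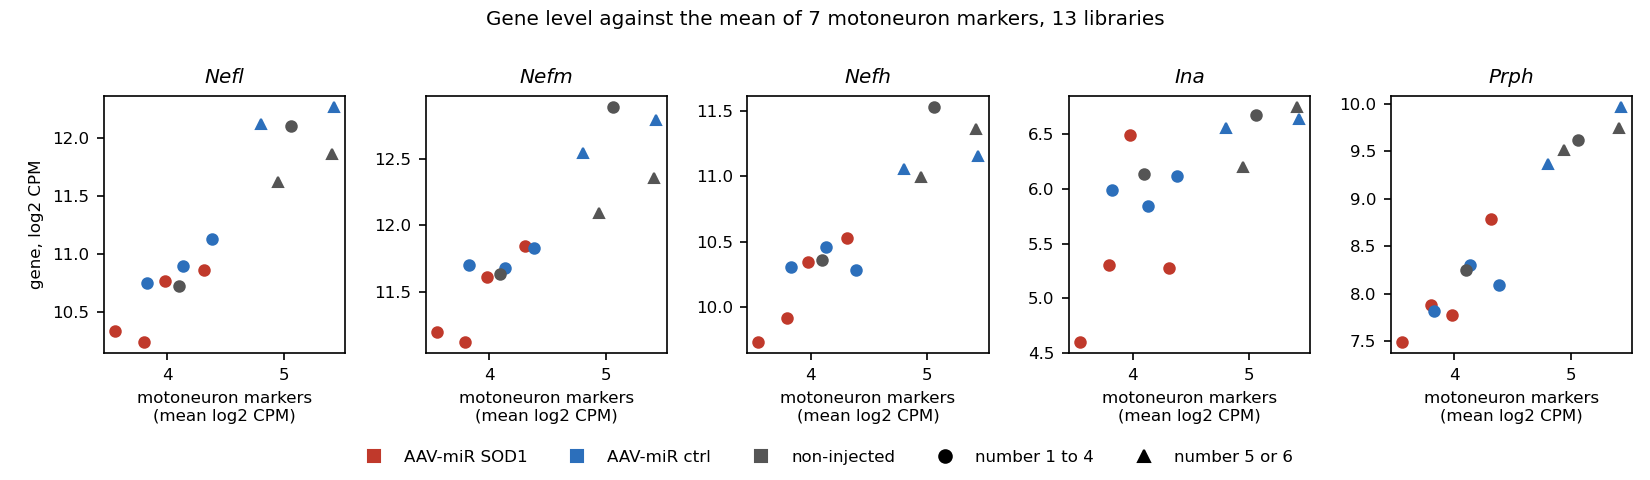
Log2 CPM of each gene against the mean log2 CPM of 7 motoneuron markers in 13 libraries, coloured by group, with triangles for libraries numbered 5 or 6. Pearson r is 0.97 for Prph and 0.75 for Ina, where AAV-miR SOD1 replicate 4 lies high and replicates 2 and 3 low for their marker level.

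Genes most like each member were taken as the 3 with the highest Pearson r of log2 CPM over the 13 libraries among 7939 genes compared. For Nefl they were Atp6v1d (0.99), Haghl (0.99) and Flot1 (0.99), and for Nefm Cda (0.98), Palm3 (0.98) and Lgi3 (0.98). For Nefh they were Lypd6b (0.98), Clip3 (0.98) and Zfyve28 (0.97), and for Prph Ccdc92 (0.98), Fndc4 (0.98) and Fam69b (0.98). For Ina they were Polr1c (0.94), Clec2l (0.93) and Sh3gl2 (0.92). The values for Ina were lower than those of the other members. With group means subtracted first, the same 3 genes came out for Prph, 2 of the 3 for Nefm and for Ina, 1 for Nefl and none for Nefh.

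The partners of neurofilaments were followed in 5 lists, and no gene of any list passed the adjusted threshold in any comparison. Values below are log2 fold changes of AAV-miR SOD1 against both control groups with SE. Among genes for kinases and phosphatases that act on the side arms and for their regulators, 2 of 10 were lower at an unadjusted p under 0.05, near the 12.1% of all genes, and the median was -0.20. Cdk5, a kinase of the lysine-serine-proline repeats, stood at -0.90 ± 0.23 (edgeR adjusted p = 0.0960). Gsk3b and the Cdk5 activator gene Cdk5r1 stood at -0.22 ± 0.16 and -0.33 ± 0.24.

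Among 7 genes for linkers that tie filaments to other structures and for proteins that turn filaments over, 2 were lower at an unadjusted p under 0.05, where 12.1% of all genes were. Trim2, a ubiquitin ligase that binds the light chain, stood at -0.59 ± 0.20 (edgeR adjusted p = 0.124). The linkers Plec and Dst stood at -0.47 ± 0.23 and -0.39 ± 0.19. Of the genes whose proteins bind neurofilament transcripts, none had an unadjusted p under 0.05: Arhgef28 stood at -0.49 ± 0.34, Hnrnpk at 0.16 ± 0.13 and Tardbp at 0.13 ± 0.13.

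Genes of microtubules, actin and the axon skeleton had 10 of 18 lower and 1 higher at an unadjusted p under 0.05, where 12.1% of all genes were lower and 10.2% higher, with a median of -0.63 against -0.06 over all genes. Tubb4a and Tubb2a, beta tubulins, stood at -1.32 ± 0.34 and -1.10 ± 0.33. Mapt, the microtubule protein tau, stood at -0.93 ± 0.22, and the alpha tubulin Tuba1a at -0.91 ± 0.26, with edgeR adjusted p of 0.0960 to 0.103 for these 4 genes. The higher gene was Actb at 0.52 ± 0.23, named after its value was seen because it was the exception. Of 10 genes for intermediate filaments outside this family, 9 were tested, 1 was lower at an unadjusted p under 0.05, near the 12.1% of all genes, and the median was -0.02. Synm, a partner of desmin in muscle, stood at -0.90 ± 0.34 (edgeR adjusted p = 0.143), Vim, the filament of glia and vessels, at 0.45 ± 0.23, Lmnb1 of the nuclear lamina at 0.87 ± 0.52 and Krt18 at 1.45 ± 0.95. Desmin (Des), a muscle filament, was read at 300.1 to 3506 CPM in the captures.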

How the data were processed

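Reads from amplified complementary DNA (SMARTer Ultra Low and Nextera XT kits, per the labels' protocols) were processed by the authors with cutadapt 1.8, STAR 2.5.2b and HTSeq 0.6.1 on GRCm38, per the submitters' processing notes. The deposited values are raw counts per Ensembl gene, 1 table per library. The gene annotation and the strand setting are not given in the sources used here. The 5 HTSeq summary rows were left out of library sizes and tests. Symbols and exon lengths came from GENCODE M21, which named 48349 of 48709 rows, and promoters from RefSeq.

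Differences were tested with edgeR 4.0.16 in R 4.3.3 (TMM, genes with at least 10 counts as filterByExpr requires, quasi-likelihood, 3 groups in 1 fit, 17403 genes), with Benjamini-Hochberg adjustment. The contrast with both control groups weights them equally, whereas the permutation tests use the mean of 9 libraries. Log2 CPM used a prior count of 2. DESeq2 1.42.0, limma 3.58.1, other scalings, no filter, fewer libraries, exchanged headers and a replicate block were alternatives. On counts simulated for the contrast of AAV-miR SOD1 with both control groups (17403 genes, 200 changed), edgeR recovered 11.9% of genes changed 2-fold and 70.1% of those changed 4-fold. Of 124 genes called there, 10 had not been changed. The changed genes were drawn at random and each gene was simulated on its own, so these rates are not rates for the members.

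Libraries were not treated as paired by replicate number in the main tests. No pair of libraries agreed within sampling noise. Named from each list were the up to 4 genes with the smallest unadjusted p against both control groups, and some of these are not reported here. The members and lists were chosen with earlier results of these data known.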

Additional observations from a re-analysis of the deposited data

Results flagged for a closer look

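A single value stood apart within its group: Prph in non-injected replicate 2, with a log2 CPM of 8.25, lay far below the other 3 non-injected libraries. In CPM it stood at 305, and the others lay between 732 and 860.4. The same library was the lowest of its group for the other members. Of 45 groups of values searched by this rule, about 2.25 would be marked by chance at 1 in 20, so a single mark is within what chance gives.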

How the results depend on the processing

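The adjusted threshold was passed by no member under edgeR in any comparison with any alternative scaling, filter or choice of libraries, and under limma-voom by none. DESeq2 called 1 member against the non-injected group and 1 against both control groups. Over all genes, DESeq2 called 173 against AAV-miR ctrl, 996 against the non-injected group, 1480 against both control groups and 2 between the control groups, and limma-voom 1461 against both control groups, where edgeR called 0 in each. In that last comparison edgeR itself called 1694 genes without AAV-miR ctrl replicate 1, 121 without AAV-miR SOD1 replicate 3, 1 without AAV-miR SOD1 replicate 4 and 1 with no gene filter. The cause was not tested. The depth of 13897189 to 37414222 counts did not limit the members, whose lowest count was 511.

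Every log2 fold change of AAV-miR SOD1 against a control group kept its sign under every alternative run, apart from Prph against AAV-miR ctrl, which was 0.0093 in the libraries numbered 1 to 4. With the headers exchanged, AAV-miR ctrl against non-injected gave 0.44 for Nefl, 0.46 for Nefm, 0.095 for Nefh, 0.16 for Ina and 0.089 for Prph. Leaving out 1 library at a time gave -0.33 to 0.094 for Nefl and -0.33 to 0.13 for Nefm in that comparison.

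Replicate numbers occur in several groups, but same-numbered libraries did not deviate together in every pair, with correlations of deviations from the group means between -0.19 and 0.24. With the replicate number as a block, the estimates against both control groups were -0.55 for Nefl, -0.49 for Nefm, -0.46 for Nefh, -0.80 for Ina and -0.41 for Prph, and 0 members were called in any comparison. The labels do not say whether same-numbered libraries belong together, so the main tests used no pairing.

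Differences in ratios and relative to the marker mean were small, so their signs turned more often. None passed the exact permutation test in any setting, but with fewer libraries the group sizes partly fixed this outcome. Among libraries numbered 1 to 4, the smallest exact permutation p possible was 0.0667 with 4 against 2 and 0.1 with 3 against 2. Those tests could not pass. In the libraries numbered 1 to 4, Ina to Nefl differed by -0.19 against AAV-miR ctrl, -0.13 against non-injected and -0.17 against both control groups, and Prph to Nefl by 0.13 against both. Between the control groups, Nefm to Nefl differed by -0.032 and Ina to Nefl by 0.066. With the headers exchanged, Ina to Nefl differed by -0.089 against non-injected.

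Relative to motoneuron markers, the libraries numbered 1 to 4 gave -0.014 for Nefh and 0.12 for Prph against AAV-miR ctrl, -0.14 for both Nefm and Nefh against non-injected, and -0.11 for Nefm and -0.066 for Nefh against both control groups. Between the control groups they gave -0.027 for Nefl and -0.060 for Nefm. The pan-neuronal reference gave 0.044 for Nefl, 0.26 for Nefm, 0.11 for Ina and 0.20 for Prph against AAV-miR ctrl, 0.018 for Nefl and 0.024 for Ina against non-injected, and 0.033 for Nefl and 0.073 for Ina against both. It moved Nefh to 0.40 against AAV-miR ctrl. Between the control groups it gave -0.026 for Nefl, -0.011 for Nefm and -0.090 for Ina. The header exchange gave 0.014 for Nefl against non-injected and 0.018 for Nefh between the control groups. A prior count of 0.5 gave -0.024 for Nefh against non-injected and -0.0046 for Nefm against both.

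Leaving out 1 library at a time gave these ranges where the sign turned. For Ina to Nefl they were -0.22 to 0.27 against AAV-miR ctrl, -0.28 to 0.20 against non-injected, -0.25 to 0.24 against both and -0.17 to 0.12 between the control groups. For Prph to Nefl they were -0.0090 to 0.30 against AAV-miR ctrl and -0.20 to 0.11 against both, for Nefh to Nefm -0.020 to 0.068 against both, and for Nefm to Nefl -0.054 to 0.098 between the control groups. Relative to motoneuron markers, Nefm ranged from -0.11 to 0.014 against AAV-miR ctrl and from -0.022 to 0.12 against both. Nefh ranged from -0.019 to 0.17 against AAV-miR ctrl, -0.038 to 0.13 against non-injected and -0.13 to 0.058 between the control groups. Nefl ranged from -0.14 to 0.058 against non-injected, and Ina from -0.39 to 0.13 against non-injected and -0.47 to 0.045 against both.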
